A study of Mus musculus with 2 samples.

Results

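Caudal-eminence-like cortical interneurons were taken from the library of embryonic day 18 (E18) mouse cortex by a rule on UMI counts, UMIs being the tagged transcript copies counted in each cell. A cell qualified with 500 or more genes detected, 10% or less of its UMIs from mitochondrial genes, 0 UMIs of Lhx6, 2 or more UMIs over Gad1, Gad2 and Dlx6os1 together, and at least 2 of 7 marker genes detected. The markers were Adarb2, Cxcl14, Htr3a, Nr2f2, Npas1, Prox1 and Sp8. The rule also allowed at most 1 UMI of the excitatory neuron gene Neurod6 and at most 2 UMIs over Mki67, Top2a, Cenpf, Birc5 and Ube2c, which dividing cells transcribe. It selected 84 of 2922 E18 barcodes, and 5700 barcodes were deposited in the series as a whole. The 84 cells made up 3.19% of the 2631 E18 cells that passed the limits on genes and mitochondrial UMIs (exact 95% Clopper-Pearson interval 2.55 to 3.94).

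The study followed the dorsal ventricular-subventricular zone (V-SVZ), the germinal layer lining the lateral ventricles, across birth. Its E18 library was made from CD1 mice and held the tissue above the lateral ventricles, from sections in front of the hippocampus, with cortex and dorsal V-SVZ together. Its postnatal day 2 (P2) library was of the genotype Emx1Cre;R26Eyfp fl/fl, where Cre under control of the cortical progenitor gene Emx1 switches on EYFP, and held dorsal and lateral V-SVZ after removal of the cortex. Both were sorted for living cells. With 1 library at each age no test was possible, so values are given with 95% counting intervals, which do not cover the spread between animals; the labels do not say how many animals each library pooled.

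Cortical GABA neurons are not born in the cortex. They arise in the ganglionic eminences below it and migrate tangentially into the cortical wall. Cells of the medial eminence express the homeobox gene Lhx6 and give rise to somatostatin and parvalbumin interneurons. Cells of the caudal eminence lack Lhx6, express factors such as Prox1, Sp8 and Nr2f2, and give rise to the interneurons later marked by the serotonin receptor subunit Htr3a, among them those that make the vasoactive intestinal peptide (Vip), cholecystokinin (Cck) or reelin (Reln). The lateral eminence supplies striatal neurons and the neuroblasts of the olfactory bulb, some of which also express Sp8 and Nr2f2.

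The E18 matrix held 19986915 UMIs, and its barcodes had a median of 6292.5 UMIs. The caudal-like cells carried 376586 UMIs, with 809, 4611 and 8450 UMIs in the lowest, the median and the highest cell. For comparison, 92 E18 cells met the same limits on Gad1, Gad2, Dlx6os1, Neurod6 and cycle genes but had 1 or more UMIs of Lhx6. These Lhx6-positive cells held 546729 UMIs with a median of 5324 per cell. A further 40 cells had 0 Lhx6 UMIs but only 0 or 1 of the markers. The caudal-like cells were thus 38.9% and the Lhx6-positive cells 42.6% of the 216 gated GABA cells. Excitatory cells, defined by 2 or more Neurod6 UMIs and none of Gad1, Gad2 or Dlx6os1, numbered 1926 with a median of 6930 UMIs. Their levels are given for comparison. Levels are given in CPM, a gene's UMIs scaled by the total UMIs of its group to counts per 1000000. Nfia and Meis2 stood at 243 and 441 CPM in excitatory cells but at 3.66 and 1.83 CPM in Lhx6-positive cells. For such genes the excitatory level cannot be taken as a reading of free RNA. The part of free RNA was not tested. The 2 libraries had 0 cell barcodes in common.

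The 7 markers chose the cells, so their values are a description. Adarb2, which encodes an RNA-binding relative of the editing enzymes, was found in 76 of the 84 cells and stood at 1081 CPM. Prox1 and Sp8 were detected in 65.5% and 61.9% of the cells, Npas1 in 63.1%, Nr2f2 in 59.5%, Htr3a in 47.6% and the chemokine gene Cxcl14 in 35.7%. Among Lhx6-positive cells 32.6% had a UMI of Npas1 and 9.78% of Nr2f2, whereas the other markers were seen in 3.26% or fewer. In excitatory cells, which should lack these genes, the shares ran from 0% for Htr3a to 1.14% for Cxcl14. With each cell thinned to 3000 UMIs, which left out 14 shallower caudal-like cells, Adarb2 was detected in 85.7% of 70 cells (75.3 to 92.9) and Cxcl14 in 32.9% (22.1 to 45.1). No single marker was shared by all the cells, and Adarb2 came closest.

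**Figure D1:**
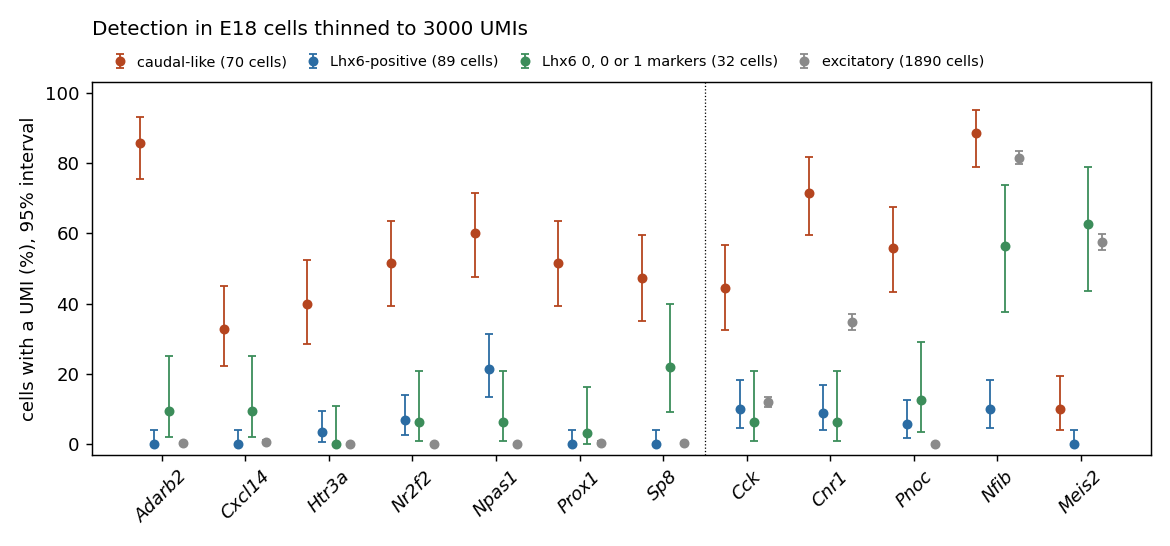
Share of E18 cells with at least 1 UMI (vertical axis, percent, with exact 95% intervals) after thinning to 3000 UMIs, for the 7 marker genes that selected the cells (left of the dotted line) and 5 other genes, in 4 groups of cells. Caudal-like cells reached 71.4% for Cnr1 and 55.7% for Pnoc against 8.99% and 5.62% of Lhx6-positive cells, while excitatory cells stood at 34.7% for Cnr1 and 81.5% for Nfib.

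How many markers a cell showed varied widely. Exactly 2 were detected in 9 cells, 3 in 17, 4 in 25, 5 in 15, 6 in 14 and all 7 in 4. Just outside the threshold stood 22 cells with exactly 1 marker, and 18 cells had none. Of the Lhx6-positive cells 58 had 0 markers, 27 had 1, 6 had 2 and 1 had 5. The 18 cells with 0 markers held 175 Sst UMIs, 168 of them in 1 cell, although no Lhx6 UMI was read in them.

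The comparison of caudal-like with Lhx6-positive cells asked how the interneuron lineages of the E18 cortex differed beyond the genes that defined them. Caudal-like cells had more of the peptide genes Cck, Vip and Pnoc, of the cannabinoid receptor gene Cnr1 and of the nuclear factor I genes Nfia, Nfib and Nfix. They had little or no Sst, Npy, Nxph1 or Gria1. The measured genes of GABA identity outside the rule, and most genes of the young neuronal cytoskeleton, stood within 2-fold of the Lhx6-positive level. Of 5856 genes with 20 or more UMIs over both groups, 368 (6.28%) were 2-fold or more higher and 329 (5.62%) were 2-fold or more lower in caudal-like cells, with the genes of the rule left out. The median log2 ratio over all these genes was 0.01. The counts of list genes below are to be read beside these shares. Ratios below are log2 of caudal-like over Lhx6-positive CPM, with the exact conditional 95% interval in brackets.

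Cck, Pnoc and Vip stood out on the caudal-like side. Cck, which encodes the peptide of the cholecystokinin basket cells, was at 937 CPM against 54.9 CPM, a log2 ratio of 4.09 (3.56 to 4.68). Its UMIs came from 37 of 84 cells, with at most 34 in 1 cell, and from 18 of 92 Lhx6-positive cells, with at most 3. Pnoc, the precursor of nociceptin, was broader: it was detected in 56 caudal-like and 5 Lhx6-positive cells, at 327 and 9.15 CPM (log2 ratio 5.16, 3.90 to 6.81). Excitatory cells held Pnoc at 0.40 CPM. Vip was restricted to 10 caudal-like cells with 51 UMIs in all, 17 of them in 1 cell, while the Lhx6-positive and excitatory cells held 0. Set against a floor of 3 UMIs over the Lhx6-positive group, Vip was 24.7-fold higher, a ratio that leaves out the counting error of its 51 UMIs.

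Sst and Npy, the peptide genes of the medial lineage, lay on the other side. A single Sst UMI was read in the caudal-like cells, against 637 in 29 Lhx6-positive cells (log2 ratio -8.78, -14.08 to -6.29). Npy gave 9 UMIs in 8 caudal-like cells, never more than 2 in a cell, against 573 in 42 Lhx6-positive cells. Of those 573 UMIs 231 lay in 1 cell. The excitatory cells of the library held Npy at 423 CPM, above the 23.9 CPM of the caudal-like cells. Of 11 genes for peptides and their processing with 20 or more UMIs, 4 were 2-fold or more higher and 3 lower. The shares over all genes were 6.28% and 5.62%. The list had a median log2 ratio of 0.85 beside the 0.01 of all genes. Pcsk2, a prohormone convertase, was the fourth higher gene at 1.68 (0.54 to 2.92), and Pcsk1n, which encodes an inhibitor of such convertases, was lower at -1.04 (-1.32 to -0.77).

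**Figure D2:**
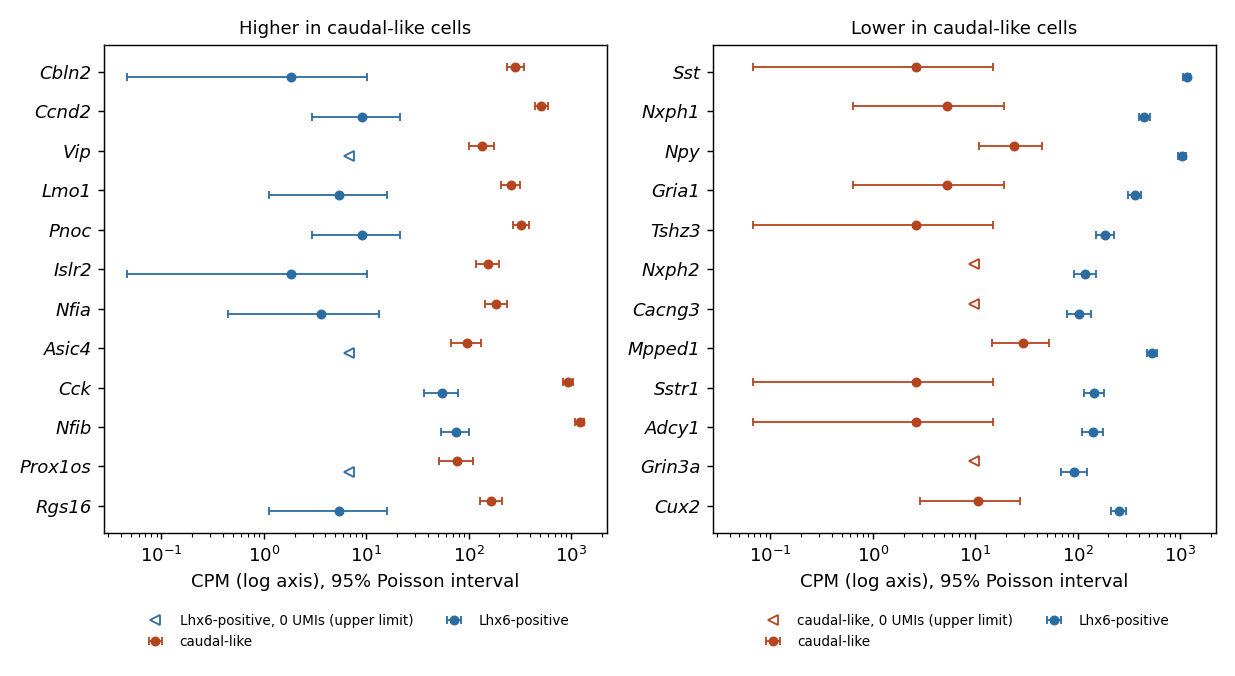
CPM (horizontal log axis) with exact 95% Poisson intervals of the 12 genes ranked first in each direction between 84 caudal-like and 92 Lhx6-positive E18 cells; open triangles mark the upper limit where a group had 0 UMIs. Intervals of the 2 groups did not overlap for any of the 24 genes, which were chosen for that difference.

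Nuclear factor I proteins are DNA-binding regulators of progenitor and neuronal maturation. Nfib was found in 79 of 84 caudal-like cells and in 16 of 92 Lhx6-positive cells, at 1214 and 75.0 CPM (log2 ratio 4.02, 3.55 to 4.51). Nfix followed at 744 against 54.9 CPM, and Nfia at 186 against 3.66 CPM. Excitatory cells held these genes at 996, 1327 and 243 CPM. The part of free RNA in the caudal-like levels was not tested. Among 17 transcription factor genes of forebrain neurons with 20 or more UMIs, 8 were 2-fold or more higher and 2 lower. The shares over all genes were 6.28% and 5.62%, and the list had a median of 0.97. Lmo1, a LIM-only cofactor gene, stood at 258 against 5.49 CPM, with its UMIs in 25 and 3 cells, and Insm1, a zinc-finger factor of newborn neurons, was higher at 2.37 (1.12 to 3.83). Tcf4, a basic helix-loop-helix factor found in nearly every cell of either group, was higher at 1.26 (1.13 to 1.40). Bcl11a was lower at -1.79 (-2.29 to -1.32) and Lmo3 at -1.02 (-1.88 to -0.23).

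Other genes ranked first on the caudal-like side were of mixed function. Cbln2, a synapse organiser of the cerebellin family, had 108 UMIs in 33 caudal-like cells and 1 UMI in 1 Lhx6-positive cell. Asic4, a member of the acid-sensing ion channel family, had 36 UMIs in 24 cells against 0, or 17.4-fold higher when set against the floor of 3 UMIs. Rgs16, which quenches G protein signalling, was detected in 34 against 3 cells (log2 ratio 4.93, 3.32 to 7.25). Islr2, an immunoglobulin and leucine-rich repeat gene of growing axons, was detected in 26 against 1 cell. It was not particular to the caudal-like cells. Lhx6-0 gated cells outside the rule held Islr2 at 217 CPM with 0 markers and 232 CPM with 1. Caudal-like cells held it at 307 CPM with 2 markers and 117 CPM with 4 to 7. Prox1os, a transcript antisense to Prox1, had 29 UMIs in 20 cells against 0. Prox1os (chr1:190170296-190217276, + strand, GRCm38) overlaps the start of Prox1 (chr1:190118035-190170714, - strand), from 190170296 to 190170714. Whether counting used the strand is not stated, so reads from that stretch cannot be told apart from those of a gene that the rule used. How many Prox1os reads lay there was not tested.

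The genes ranked first on the Lhx6-positive side included several of the synapse. Nxph1, a neurexin ligand, was found in 2 of 84 caudal-like and 78 of 92 Lhx6-positive cells (log2 ratio -6.40, -9.45 to -4.53). Its relative Nxph2 had 0 UMIs against 65, and Cacng3, an auxiliary subunit of AMPA receptors, had 0 against 57. Gria1, the AMPA receptor subunit GluA1, was found in 2 against 76 cells (5.31 and 362 CPM). Tshz3, Sstr1 and Adcy1 each had a single UMI in the caudal-like cells against 102, 80 and 77, and Cux2 had 4 against 138. The Lhx6-positive UMIs of these genes came from 45, 21, 29 and 59 of the 92 cells, in that order. Of the Sstr1 UMIs 50% lay in 5 cells. Mpped1 stood at 29.2 CPM against 532, but at 563 CPM in excitatory cells.

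Glutamate receptor genes were lower as a group. Of 11 with 20 or more UMIs, 6 were 2-fold or more lower in caudal-like cells (5.62% of all genes) and 1 was higher (6.28%). Their median log2 ratio was -1.94. Beside Gria1, the lower ones included Grin3a (0 against 51 UMIs in 17 cells) and the metabotropic receptor gene Grm5 (-3.62, -5.27 to -2.34). The other lower ones were Gria4 (-2.01) and the kainate receptor genes Grik1 (-1.94) and Grik3 (-2.11). The intervals of the NMDA receptor genes Grin1 and Grin2b included 0, at -0.05 (-1.14 to 1.00) and -0.10 (-0.48 to 0.27). Grin2d was the higher one, at 1.12 with an interval that included 0 (-0.29 to 2.62). Of 17 genes of synaptic release and mature neurons, 5 were lower (5.62% of all genes) and none was 2-fold higher, with a median of -0.29. Among these were Rbfox1 (-2.72), Syt1 (-1.45), Snap25 (-1.29) and Syt4 (-1.26). Syn1 and Rbfox3 stayed within 2-fold.

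None of the 9 measured genes of GABA identity outside the rule passed 2-fold in either direction, and their median was 0.37. The homeobox genes Dlx1 (0.86, 0.53 to 1.19), Dlx2 (0.67, 0.38 to 0.96) and Dlx5 (0.90, 0.47 to 1.34) had intervals above 0. The vesicular GABA transporter gene Slc32a1 was at 215 and 166 CPM. Of the genes used by the gate, Dlx6os1 was at 794 CPM in caudal-like and 159 CPM in Lhx6-positive cells, and Gad2 at 175 and 254 CPM.

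Of 12 genes of young neurons 1 was 2-fold or more higher and 1 lower, shares close to those of all genes (6.28% and 5.62%), and the median was 0.02. Stmn1, a microtubule-destabilising protein gene, stood at 6293 and 6415 CPM, Sox11 at 2284 and 2405 CPM, and doublecortin (Dcx) at 478 and 567 CPM. The exceptions were Igfbpl1, at 1410 against 349 CPM, and the growth cone gene Gap43, at 117 against 613 CPM. Genes that respond to tissue dissociation had a median of 0.01, with Jund higher at 1.60 and Junb at -1.18 with an interval that included 0 (-2.64 to 0.09), and genes of survival and cell death had a median of -0.03.

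Of 9 caudal lineage genes outside the rule, 8 were 2-fold or more higher, with a median log2 ratio of 2.95. Beside Vip and Cck these were Calb2 (4.63, 2.66 to 7.73), Cnr1 (3.69, 3.17 to 4.25), Synpr (2.95), Igf1 (2.91), Id2 (2.02) and Nr2f1 (1.16). Calb2 was detected in 10 caudal-like cells, with 85.3% of its UMIs in 5 of them and 11 UMIs in 1 cell without Adarb2. Id2 was at 1027 CPM in excitatory cells, above its 401 CPM in caudal-like cells. Reln was the exception at 42.5 against 132 CPM (-1.63, -2.51 to -0.84); its 16 UMIs came from 9 caudal-like cells. Lamp5 was at 0 in both groups and Ndnf had 0 UMIs in the caudal-like cells. By a limit of 3 counts, 0 of 84 cells allows up to 3.57% of cells with a UMI at this depth (exact upper bound 4.30%), which is no limit on cells expressing the gene. Of 12 medial lineage genes 10 were 2-fold or more lower, with a median of -3.19: Sox6 was at -3.13, Satb1 at -2.33 and Maf at -1.22, while Elfn1 (-0.93) and Zeb2 (0.40) stayed within 2-fold. Since the groups were formed with Lhx6 and caudal markers, these counts describe how far the choice carried to linked genes.

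**Figure D3:**
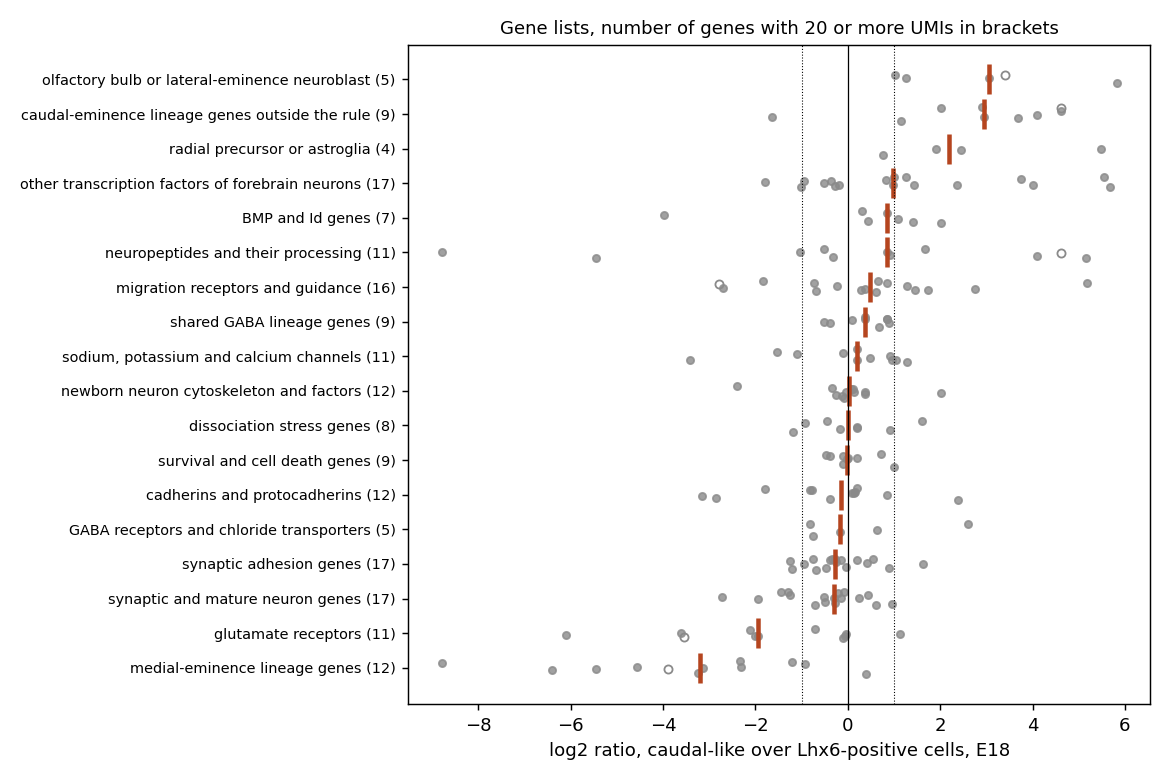
log2 ratio of caudal-like over Lhx6-positive E18 cells (horizontal axis) for each gene with 20 or more UMIs in 18 gene lists (grey points; open points had 0 UMIs in 1 group and sit at the ratio to a floor of 3 UMIs) and the median of each list (red bar); dotted lines mark 2-fold. Medians ran from -3.19 for medial lineage genes to 3.06 for olfactory bulb or lateral-eminence genes, of which 5 were measured.

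Among 16 genes of migration and guidance 5 were higher and 3 lower, with a median of 0.49. Of all genes 6.28% were 2-fold or more higher and 5.62% lower, the shares to set beside each list in this paragraph. The receptors for the chemokine Cxcl12 parted: Cxcr4 was at 85.0 and 65.8 CPM, with an interval that included no difference (0.37, -0.37 to 1.10), whereas Ackr3, which scavenges the chemokine, was found in 5 caudal-like and 36 Lhx6-positive cells (-2.71, -4.22 to -1.50). Dab1, the adaptor of reelin signalling, had 25 UMIs in 17 cells against 1, and the reelin receptor gene Vldlr was higher at 1.29 (0.35 to 2.28). Robo1, a Slit receptor gene, was found in 21 against 3 cells, while Robo2 was within 2-fold at 0.62. The repellent gene Sema3a had 0 UMIs against 30. Of 12 cadherin and protocadherin genes, Pcdh9 was higher (2.39, 0.90 to 4.17) and Cdh13 (-2.85), Pcdh19 (-3.16) and Pcdh17 (-1.78) were lower. Of 17 synaptic adhesion genes, Cntnap5a was higher at 1.64, and Tenm2 (-1.25) and Lrfn5 (-1.20) were lower. The 1 higher of 17 lies near the share of all genes. Of 11 channel genes, Cacna1b (1.27) and Cacna2d3 (1.05) were higher, and Cacna1a (-3.42) and Scn3a (-1.54) were lower. Scn2a stood at -1.10 with an interval that included 0 (-2.37 to 0.02). Of 5 GABA receptor and chloride transporter genes Gabra2 was higher at 2.61, and the others, Slc12a5 at -0.74 (-2.25 to 0.60) among them, were within 2-fold.

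BMP and Id genes were measured for 7 members, with a median of 0.86. The dominant-negative helix-loop-helix genes Id2 and Id4 were higher (2.02 and 1.42), and Id3 was lower, with 2 UMIs in 1 caudal-like cell against 46 UMIs in 26 Lhx6-positive cells. Smad1 stood at 1.09 with an interval that included 0 (-0.01 to 2.22).

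Markers of other cell types were low, with the exceptions given next. Excitatory genes summed to 53.1 CPM over 11 genes, with Slc17a7 and Slc17a6 at 0, against 1708 CPM in the excitatory cells. Of 14 striatal projection neuron genes 10 were at 0, among them Isl1, Ebf1, Six3, Drd2 and Ppp1r1b, and the sum was 47.8 CPM (0 to 623 in single cells). Genes of oligodendrocyte precursors, microglia and vessels summed to 5.31, 2.66 and 2.66 CPM. Radial precursor and astroglia genes summed to 505 CPM, against 159 CPM in Lhx6-positive cells and 11889 CPM in the remaining ungated cells, with Hes1 and Hes5 at 0. Of the 49 Fabp7 UMIs among them 31 lay in 1 cell. Pax6 was more even, with 31 UMIs over 20 cells against 1 UMI in the Lhx6-positive cells. The part of other cells or of free RNA in these values was not tested.

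Genes of olfactory bulb or lateral-eminence neuroblasts were also higher than in Lhx6-positive cells. All 5 measured genes passed 2-fold: Meis2 (39 against 1 UMI), Pbx3 (22 against 0), St18 (3.06), Etv1 (1.25) and Tshz1 (1.03). The 9 genes of the list summed to 398 CPM (0 to 4573 CPM in single cells), with Gsx2 at 0. Their sum was 91.5 CPM in Lhx6-positive cells and 1536 CPM in the 40 Lhx6-0 cells with 0 or 1 markers. Meis2 stood at 441 CPM in excitatory cells, above the 104 CPM of caudal-like cells.

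Meis2 UMIs lay mostly in the cells with the fewest markers. Meis2 was detected in 7 of the 9 cells with exactly 2 markers, at 766 CPM (517 to 1094), and in 6 of the 75 cells with 3 or more, at 26.7 CPM (12.2 to 50.6). The 22 cells just outside the rule had Meis2 at 863 CPM (697 to 1058). Etv1 lay the same way, with 19 of its 23 UMIs in the cells with 2 markers and 4 in those with 3 or more. Pbx3 and Tshz1 did not follow this order: 2 of the 22 Pbx3 UMIs lay in the cells with 2 markers, and Tshz1 was at 25.5 CPM with 2 markers, 175 CPM with 3 and 104 CPM with 4. Ccnd2, the D-type cyclin of neural progenitors, behaved alike: of its 193 UMIs 155 lay in the 9 cells with 2 markers, and 75 lay in 1 cell. The 5 cells with 10 or more Ccnd2 UMIs all had exactly 2 markers, all 5 had a Meis2 UMI, and none had a UMI of Cck or Cnr1. In the cells with 3 or more markers Ccnd2 was at 113 CPM (79.7 to 155). Its log2 ratio over Lhx6-positive cells was 5.81 (4.56 to 7.45) for all caudal-like cells and 3.62 for those with 3 or more markers. The same 9 cells held 21 of the 26 Vim UMIs and 32 of the 49 Fabp7 UMIs. A further cut at 3 or more UMIs of striatal or olfactory genes also marked 9 cells, 6 of them among the 2-marker cells. Since the rule had 2 markers as its threshold, these levels describe its edge, and the cells below 3 markers match the name given by the rule less well than the others.

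**Figure D4:**
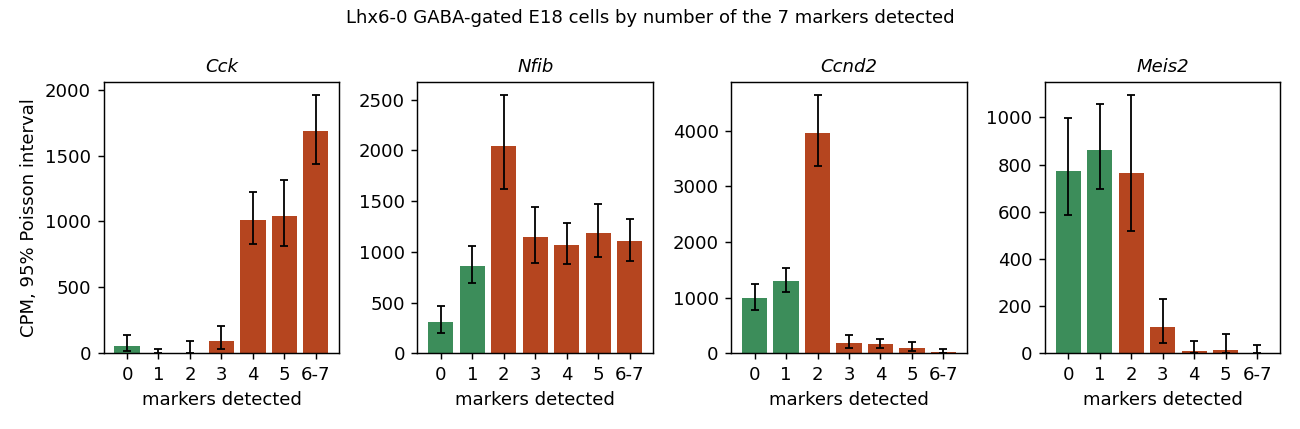
CPM with exact 95% Poisson intervals (vertical axis, linear, from 0) of Cck, Nfib, Ccnd2 and Meis2 in E18 cells with 0 Lhx6 UMIs that passed the GABA gate, by the number of the 7 markers detected; red bars are caudal-like cells and green bars cells outside the rule. Cck went from 0 CPM at 2 markers to 1683 CPM at 6 or 7, while Ccnd2 and Meis2 were at 3960 and 766 CPM at 2 markers.

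Cck and Cnr1 ran the other way. Cck was at 0 CPM with 2 markers, 95.2 CPM with 3 (34.9 to 207), 1014 CPM with 4 (831 to 1226) and 1683 CPM with 6 or 7 (1438 to 1957). Cnr1 was at 128, 460, 957 and 972 CPM in the same cells. Pnoc was detected in 3 of 9 cells with 2 markers and in all 18 cells with 6 or 7. Median UMIs per cell were 4747 at 2 markers, 3578 at 3, 4047 at 4 and 5873 at 6, so cells with 2 markers were not the shallowest. Nfib did not follow this order: it was at 2044 CPM with 2 markers and between 1071 and 1187 CPM at 3, 4, 5 and 6 or 7.

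A split by Adarb2 set 76 cells with against 8 cells without a UMI. The 8 cells had 0 UMIs of Cck against 353, 0 of Lmo1 against 97 and 2 of Cnr1 against 291. They had more Ccnd2 (3577 against 191 CPM), Etv1 (363 against 29.3 CPM), the growth factor gene Mdk (391 against 17.6 CPM), Hmgb2 (391 against 41.1 CPM) and Mpped2 (475 against 61.6 CPM). All 128 Ccnd2 UMIs of the 8 cells lay in 3 of them, which were among the 5 cells with 10 or more. Those 5 cells were then left out, a choice made on Ccnd2 itself and after the values were seen. The 5 remaining cells without Adarb2 had 0 UMIs of Ccnd2, Mdk and Hmgb2. Etv1 was at 377 against 18.0 CPM and Mpped2 at 215 against 54.0 CPM. The 7 remaining Etv1 UMIs lay in 1 cell. Of the 8 cells 4 had exactly 2 markers, so this split and the count of markers were not independent. By Sp8 the cells divided into 52 with and 32 without. Ccnd2 was at 711 CPM with and 162 CPM without Sp8. All 5 cells with 10 or more Ccnd2 UMIs had Sp8, and without them Ccnd2 was at 78.8 and 162 CPM. Those cells were picked by their Ccnd2 UMIs, so the choice itself lowers Ccnd2 on the side with Sp8. Meis2 was at 150 against 22.0 CPM, and at 41.7 against 22.0 CPM without the 5 cells. Cells with Sp8 had more Cck (1140 against 580 CPM), and cells without it had more Vip (235 against 79.0 CPM) and Sp3 (118 against 16.6 CPM). Vip was detected in 5 cells with and 5 cells without Sp8, and 17 of the 32 UMIs without Sp8 lay in 1 cell.

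Within the caudal-like cells the Vip cells differed from the others. This subset was picked after its values were seen. All 10 had Adarb2 and all 10 had Prox1, and all 51 Vip UMIs lay in the 55 cells with Prox1. Igf1, a growth factor gene of Vip interneurons, was detected in 9 of the 10 against 20 of the 74 cells without Vip, at 559 and 109 CPM (log2 ratio 2.36, 1.57 to 3.13). Synpr, a synaptic vesicle gene, was also detected in 9 of 10, at 903 against 227 CPM (1.99, 1.41 to 2.55). Cbln2 was in 9 of 10, at 903 against 200 CPM (2.18, 1.58 to 2.76). Cnr1 and Pnoc were each in 9 of the 10 and did not separate them, with log2 ratios of 0.12 (-0.40 to 0.61) and 0.46 (-0.31 to 1.16).

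Id2 and Nr2f1 lay on the other side of this split. Id2 was in 1 of 10 Vip cells and 34 of 74 others, at 43.0 against 451 CPM (log2 ratio -3.39, -6.45 to -1.51), and Nr2f1 in 2 of 10 and 47 of 74 (-2.14, -4.45 to -0.55). Median UMIs per cell were 4951 in Vip cells and 4521 in the others. Cck was in 3 of the 10 Vip cells and in 34 cells without Vip. Of those 34 cells 23 had Id2, 25 had Nr2f1, 22 had Htr3a and 31 had Cnr1. Of the 10 Vip cells 7 thus had no Cck UMI. The 10 Calb2 cells included 0 with Id2 and 0 with Reln, and 3 with Vip. Of the 9 Reln cells 7 had Cxcl14, 8 had Pnoc and 1 had Vip.

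A split by Cxcl14 divided Cck and Id2 too. The 30 cells with Cxcl14 had more Cck (1751 against 481 CPM) and Id2 (672 against 249 CPM) and less Ccnd2 (44.3 against 775 CPM) and Calb2 (14.8 against 133 CPM) than the 54 without. The 5 cells with 10 or more Ccnd2 UMIs, a cut on this gene itself, all lacked Cxcl14. Without them Ccnd2 was at 44.3 against 152 CPM. Cells with Htr3a also had more Id2 (602 against 179 CPM) and less Vip (45.6 against 235 CPM). Vip was detected in 2 cells with and 8 without Htr3a, and 17 of the 42 UMIs without it lay in 1 cell. Cells with Npas1 had more Igf1 (233 against 16.8 CPM) and Cck (1254 against 252 CPM), and less Nfib (862 against 1974 CPM). Cells with Npas1 were also deeper, with a median of 4950 UMIs against 3656. These splits share the same 84 cells, and few cells stand behind each.

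The same rule in the P2 library selected 552 cells. Age, dissection, mouse line and library cannot be told apart between the sets, so shares of cells with a UMI are set side by side after thinning to 3000 UMIs, with 70 E18 and 546 P2 cells left. Nfib was found in 88.6% and 97.6% and Nfix in 78.6% and 84.2%. Npas1, itself a marker of the rule, was found in 60.0% of the E18 cells and 1.47% of the P2 cells. Pnoc was found in 55.7% and 2.20%, Cnr1 in 71.4% and 13.2%, and Cck in 44.3% and 0 of 546. By a limit of 3 counts, 0 of 546 allows up to 0.549% of cells with a UMI at this depth (exact upper bound 0.673%). Before thinning Cck was found in 0.725% of the P2 cells. Vip had 0 UMIs in all 552 P2 cells before thinning. Meis2 went from 7 of 70 cells to 88.5%, Ccnd2 from 22.9% to 81.7%, Pbx3 from 17.1% to 52.2% and Foxp2 from 1.43% to 32.8%. St18, of the same olfactory and lateral-eminence list as Meis2 and Pbx3, was found in 14.3% (7.07 to 24.7) and 15.9% (13.0 to 19.3). In the cells with 2 markers at E18 the Meis2 share was 7 of 9 before thinning.

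**Figure D5:**
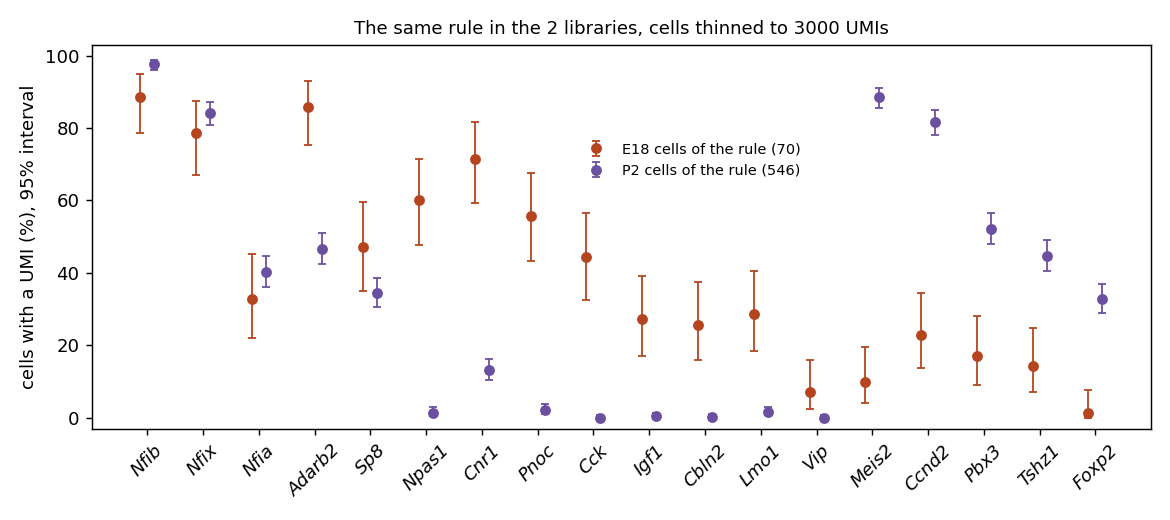
Share of cells with at least 1 UMI (vertical axis, percent, with exact 95% intervals) among the cells that met the rule at E18 (70 cells) and at P2 (546 cells), each chosen at full depth and then thinned to 3000 UMIs. Adarb2, Sp8 and Npas1 are markers of the rule. Cck, Vip, Pnoc and Npas1 were seen at E18 and in 0% to 2.20% of P2 cells, Meis2 and Ccnd2 the other way, and Nfib and Nfix in most cells of both.

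Within the P2 library the rule's cells were compared with 88 Lhx6-positive cells in the same way. Of 11503 genes with 20 or more UMIs 637 (5.54%) were 2-fold or more higher and 390 (3.39%) lower in the rule's cells. Medial lineage genes were again lower, 9 of 12 by 2-fold or more with a median of -3.28, among them Sst (-5.66), Npy (-6.27), Nxph1 (-4.08) and Gria1 of the receptor list (-3.12). Caudal lineage genes outside the rule had a median of -0.07 at P2 over 7 genes, beside 2.95 at E18. Nfib was higher by 0.50 (0.44 to 0.56) at P2, against 4.02 at E18, with 2284 UMIs in the P2 Lhx6-positive cells. Glutamate receptor genes had a median of 0.26 at P2 and -1.94 at E18. Whether these ratios differed between the ages was not tested.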

How the data were processed

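Gene counts were measured in single cells of 2 mouse libraries, 1 at E18 and 1 at P2. Per the labels and the submitters' processing notes, the authors ran Cell Ranger 4 against mm10 (4.0.0 per the file headers) and deposited raw UMI counts per gene and barcode, without normalization, with lists of gene names and barcodes. How cells were called and whether strand was used are not stated there.

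Cells were chosen with the rule given above. The members and the 25 gene lists were chosen with earlier results of these data known. Scrublet (scanpy 1.11.5, rate 0.05) gave doublet scores. Its automatic threshold called 7 E18 cells, so no cell was removed by it; 2 caudal-like cells lay among the highest 5% of scores, and leaving these cells out was an alternative.

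UMIs of all cells in a group were added up and scaled to CPM (per 1000000). Intervals at 95% were exact: Poisson for levels, conditional for ratios, and Clopper-Pearson for shares. They cover counting error only. For a group with no UMI of a gene, a floor of 3 UMIs took its place. Ratios used genes with 20 or more UMIs over both groups. The ratio and thinning code was tested on simulated data. The edgeR 4.0.16 TMM scaling was tried as an alternative.

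Named genes were the 12 first in each direction, ranked by the interval bound nearest 0, with at least 20 CPM in 1 group. Not ranked were genes of the rule, genes for mitochondrial transcripts, ribosomal proteins and haemoglobins, sex-linked markers, predicted genes with no proper name, and genes under 25% of their level in excitatory or remaining cells. For splits by a marker the first 5 were ranked likewise, and some are not reported here; the largest ratios of each list were added. Splits by Vip and by number of markers were chosen after the values were seen. Coordinates came from GENCODE M21 (GRCm38), matched by gene ID. Some results are not reported here.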

Additional observations from a re-analysis of the deposited data

Results flagged for a closer look

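Prox1os and Grin3a lay on opposite sides of the Lhx6-positive level in the E18 and P2 libraries, which is why they are listed here. Prox1os had 29 UMIs in caudal-like and 0 in Lhx6-positive cells at E18, and a log2 ratio of -0.74 (-1.18 to -0.27) at P2. Grin3a, an NMDA receptor subunit gene, had 0 against 51 UMIs at E18, and a log2 ratio of 1.66 (0.38 to 3.31) at P2, where the Lhx6-positive cells held 5 UMIs. Neither difference between the ages was tested, and age, dissection, mouse line and library cannot be told apart in it.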

How the results depend on the processing

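No paired analysis was possible because each age had 1 library. None of the 24 named ratios changed sign under the alternatives run. Medians of 7 of 18 E18 and 8 of 22 P2 lists did, all of 0.49 or less in size as reported; the migration list went from 0.49 to -0.02 thinned and -0.70 with a minimum of 50 UMIs. The side with more genes switched under that minimum, under TMM scaling (300 higher, 382 lower) and when thinned (210 and 220). The 368 higher and 329 lower genes became 90 and 123 with a minimum of 50 UMIs, 1079 and 981 without a minimum, and 905 and 791 at 1.5-fold; 3791 genes were left when thinned. E18 list medians that moved were caudal lineage genes (4.17 with Neurod6 at 0), olfactory genes (1.21 thinned and 1.03 with a minimum of 50 UMIs, each over 1 gene), radial precursor genes (1.08 with 3 or more markers, 1.05 without cells holding 3 or more UMIs of striatal or olfactory genes) and GABA receptor genes (-0.74 thinned, -0.60 without a minimum). At P2, medial genes were at -3.55 and olfactory genes at 1.82 when thinned, and young neuron genes at 0.27 without the highest doublet scores. The cause was not tested, apart from the fewer genes a higher minimum or thinning leaves. The remaining 226 of 234 E18 and 83 of 86 P2 list values, and 250 of 264 values of named genes, moved by less than their counting error. The number of caudal-like cells ranged from 75 to 83. TMM scaling shifted all E18 ratios by -0.09. Low UMI totals limit genes near the minimum: single genes with under 5 UMIs in 1 group have intervals several log2 units wide.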

Other observations

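Splits by the markers not described above divided other genes. The 50 caudal-like cells with Nr2f2 had all 30 UMIs of the long noncoding RNA Snhg11, and more Bcl11b (200 against 35.2 CPM), Id2 (546 against 162 CPM) and Cxcl14 (682 against 155 CPM), than the 34 cells without it, which had more Mdk (134 against 4.26 CPM, and 42.6 against 4.26 CPM without the 5 cells with 10 or more Ccnd2 UMIs). Ccnd2 was at 1203 CPM without and 93.8 CPM with Nr2f2, and at 145 and 93.8 CPM once those 5 cells were left out. All 5 lacked Nr2f2 and were picked by their Ccnd2 UMIs, a choice made after the values were seen. The 55 cells with Prox1 held all Vip UMIs and had more Igsf3 (153 against 38.9 CPM), and the 29 cells without it had more Snhg11 (194 against 20.2 CPM), the Wnt antagonist gene Sfrp2 (257 against 32.3 CPM), Cxcl14 (887 against 274 CPM) and Elmo1 (218 against 48.4 CPM). Corticotropin-releasing hormone (Crh) was read in 3 caudal-like cells with 15 UMIs, 10 of them in 1 cell that also held Vip, and tachykinin 2 (Tac2) in 7 cells. Prox1 and Nr2f2 were both used to choose the cells, so these values are descriptions.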
